A study of Mus musculus with 26 samples.

Results

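The miRNAs described here come from 5 hairpins that lie one after another in an intron of Clcn5 on the mouse X chromosome. They were selected on their place in this genomic cluster, the run from miR-188 to miR-532, with earlier results of these libraries known, and no threshold on a measured value was used. Of 9 listed mature miRNAs, 8 had an entry among the 1915 of the count table, and all 8 passed the filter on low counts together with 597 other miRNAs, which made 605 tested. mmu-miR-660-5p, the ninth, was not analysed here. The species prefix mmu- is left out in most of what follows.

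The libraries hold small RNA of hippocampal CA1, a field needed for memory, and were made to ask how Vorinostat, an inhibitor of histone deacetylases also known as SAHA, acts in mice with heart failure. The transgenic animals were CamkdeltaC mice, a heart failure model made by overexpression of the delta C form of the kinase CaMKII. The 3 groups were 10 libraries of transgenic mice on Vorinostat, 7 of transgenic mice on vehicle and 9 of wild type littermates on vehicle. Agent or vehicle was given in drinking water for 4 weeks from an age of 2 months, which ended at 3 months of age. Both sexes were used, and which animal was of which sex, the promoter of the transgene and the host strain are not stated in the labels. Nor do the labels say whether each library came from its own animal, and p-values therefore describe the spread of libraries, which may be technical in part.

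A miRNA hairpin is cut from a longer transcript by Drosha and then by Dicer, and either arm of the hairpin, called 5p or 3p, can be loaded into an Argonaute protein. The loaded strand finds its target messages chiefly through its seed, bases 2 to 8. Clcn5 encodes a chloride and proton exchanger of endosomes that is best known from the kidney. Hairpins within an intron are often transcribed with their host gene, and hairpins of a cluster can share a primary transcript, so their mature strands share a source but not their processing or stability. In hippocampal neurons, miR-188 was described in synaptic plasticity as a regulator of neuropilin-2, and miR-501-3p as a regulator of the AMPA receptor subunit GluA1.

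By GENCODE M21 on GRCm38 (the assembly known as mm10), Clcn5 spans chrX:7153810-7319358 on the minus strand. The 5 hairpins lie in intron 3 of a Clcn5 transcript of 15 exons, chrX:7213011-7316658, and none overlaps an exon. In the direction of transcription, the order was Mir532, Mir188, Mir362, Mir501 and Mir500. From the start of Mir532 to the end of Mir500 the cluster covers 10815 bases. Mir532 and Mir188 are 345 bases apart and Mir362 and Mir501 are 630 bases apart, whereas 5942 bases separate Mir188 from Mir362 and 3468 bases separate Mir501 from Mir500.

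The mature sequences are from RefSeq on GRCm38.p6. They are shown because the cluster holds near-copies, strands alike at most bases, and because strands with the same seed can share targets. Of the 9 listed miRNAs 7 were matched, and each is written 5′ to 3′ with its seed in capitals. The 3p strands of Mir500 and Mir501 have the same seed.
miR-500-3p: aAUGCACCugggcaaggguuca
miR-501-3p: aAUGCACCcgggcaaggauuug
The 3p strand of Mir362 has a seed that it shares with miR-329-3p, which lies outside the cluster.
miR-362-3p: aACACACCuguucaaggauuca
The 5p strands of Mir362 and Mir500 have the same seed, and that of Mir501 differs from it in the last base.
miR-362-5p: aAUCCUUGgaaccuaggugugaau
miR-500-5p: aAUCCUUGcuaucugggugcuuagu
miR-501-5p: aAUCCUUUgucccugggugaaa
The remaining strands have seeds found in no other strand of the cluster.
miR-188-5p: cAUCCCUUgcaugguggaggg
miR-188-3p: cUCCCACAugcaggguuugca
miR-532-3p: cCUCCCACacccaaggcuugca

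Positions of these strands on the minus strand of GRCm38.p6 are chrX:7237695-7237716 for miR-500-3p, chrX:7241270-7241291 for miR-501-3p, chrX:7241984-7242005 for miR-362-3p and chrX:7242019-7242042 for miR-362-5p. They are chrX:7241307-7241328 for miR-501-5p, chrX:7237730-7237754 for miR-500-5p, chrX:7248031-7248051 for miR-188-5p, chrX:7247992-7248012 for miR-188-3p and chrX:7248419-7248440 for miR-532-3p. Counted from the 5′ end, miR-500-3p and miR-501-3p are the same at 18 of 22 bases and differ by U9C, G18A, C21U and A22G, with the base of miR-500-3p first. miR-362-5p and miR-501-5p are the same at 16 of 22 bases compared, and the difference in the seed is G8U, with the base of miR-362-5p first. Values of miR-500-3p are therefore uncertain, since miR-501-3p had many more reads and the sources used here do not say how near-copies were counted. No entry of the table held the same counts as a cluster miRNA in every library.

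Depth, in mega-counts (M), ranged from 3.89 to 15.7 M in the transgenic Vorinostat libraries, from 6.01 to 24.8 M in the transgenic vehicle libraries and from 0.585 to 17.6 M in the wild type vehicle libraries. Wild type vehicle replicate 1, the shallowest, had no read of 6 of the 8 miRNAs, and 3 reads, the upper limit that a count of 0 allows, were worth 6.24 CPM (counts scaled to 1e+06 per library) there. Transgenic Vorinostat replicate 8, the shallowest of its group, had no read of 3 of them. For CPM, each count was divided by an effective library size, the total multiplied by the trimmed-mean (TMM) factor of edgeR. The column names of the count table give a lane, L001 or L002, which held 4 and 6 transgenic Vorinostat libraries, 3 and 4 transgenic vehicle libraries, and 6 and 3 wild type vehicle libraries. The tissue label was set against neuronal miRNAs: miR-124-3p, miR-128-3p and miR-9-5p together took 316143 to 468120 CPM in transgenic Vorinostat, 307854 to 390872 CPM in transgenic vehicle and 195995 to 379888 CPM in wild type vehicle libraries. The heart list of miR-1a-3p and miR-208a-3p summed to 277 to 641 CPM in transgenic Vorinostat, 361 to 664 CPM in transgenic vehicle and 313 to 520 CPM in wild type vehicle libraries. All but 2 of its reads were of miR-1a-3p, which skeletal muscle also has, and miR-208a-3p, which defines heart muscle, had 2 reads in the transgenic vehicle libraries and none in the libraries of both other groups. The part of these lists in the levels of the cluster was not tested.

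By the counts, the cluster was carried by 2 strands. mmu-miR-532-5p averaged 640 ± 220 CPM over all libraries (SD, n = 26), which ranked 80 of 1915 entries and was 81.8% of the cluster's reads. mmu-miR-501-3p averaged 122 ± 44.8 CPM, ranked 162 and gave 15.6%. The other 6 averaged between 0.622 and 6.31 CPM, and the order among them was miR-362-5p at 6.31 ± 3.16 CPM, miR-532-3p at 4.29 ± 2.12 CPM, miR-362-3p at 2.28 ± 1.51 CPM, miR-500-3p at 2.10 ± 0.828 CPM, miR-188-5p at 0.833 ± 0.425 CPM and miR-501-5p at 0.622 ± 0.591 CPM. In that order miR-362-5p and miR-532-3p, miR-362-3p and miR-500-3p, and miR-188-5p and miR-501-5p were neighbours closer than the SD of either over libraries. miR-532-3p and miR-362-3p were closer than the SD of miR-532-3p but not than that of miR-362-3p. The opposite strands miR-500-5p and miR-188-3p, which were not on the list, had 24 and 17 reads in all libraries together and were below the filter. The 2 abundant strands are opposite arms of different hairpins, as the plot of levels along the cluster shows.

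**Figure D1:**
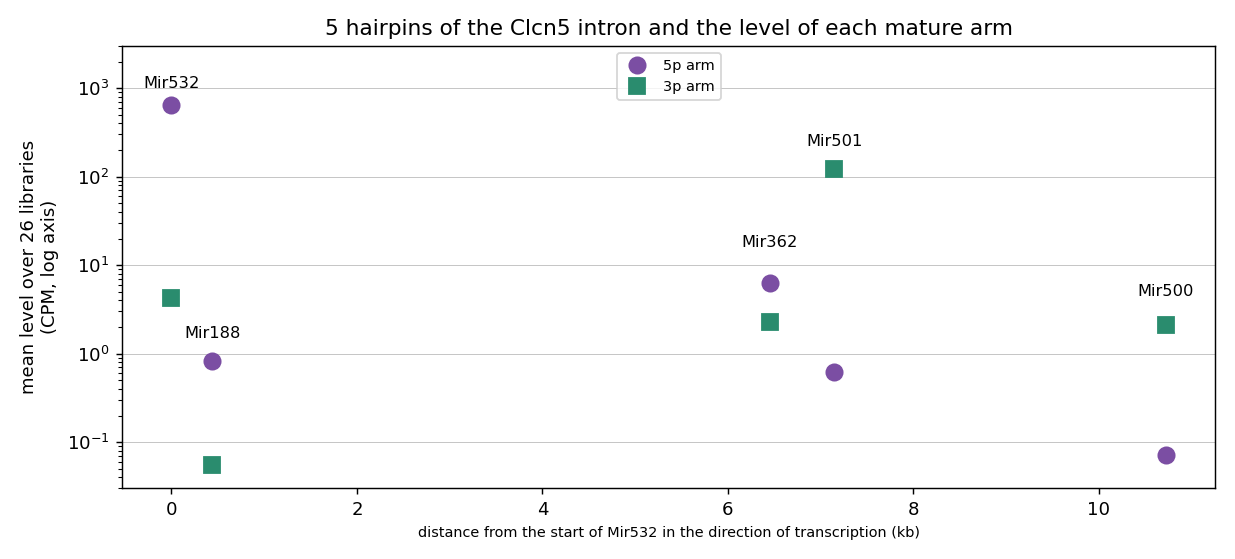
Mean level over 26 libraries of each mature strand (y axis, CPM, log axis) at the start of its hairpin (x axis, distance in kb from the start of Mir532 in the direction of transcription), with circles for 5p and squares for 3p strands. miR-532-5p, at 640 CPM, and miR-501-3p, at 122 CPM, stand above every other strand of the cluster, of which the highest is miR-362-5p at 6.31 CPM.

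mmu-miR-532-5p had its lowest, median and highest level at 415, 597 and 1105 CPM in transgenic Vorinostat libraries, at 371, 548 and 812 CPM in transgenic vehicle libraries, and at 382, 499 and 986 CPM in wild type vehicle libraries. Its means were 686 ± 219 CPM in transgenic Vorinostat, 587 ± 184 CPM in transgenic vehicle and 631 ± 257 CPM in wild type vehicle libraries (SD, n = 10, 7 and 9). The ranges of the 3 groups overlapped, and the level varied more within each group than between their means. The highest values in transgenic Vorinostat and wild type vehicle were those of the shallow replicate 8 and replicate 1. The latter rested on 474 reads. In tissue RNA like this, fewer cells of a type and less RNA per cell cannot be told apart.

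mmu-miR-501-3p, the regulator of GluA1 named above, had its lowest, median and highest level at 61.3, 116 and 259 CPM in transgenic Vorinostat libraries, at 88.9, 97.7 and 153 CPM in transgenic vehicle libraries, and at 86.9, 99.8 and 187 CPM in wild type vehicle libraries. Both ends of its range were transgenic Vorinostat libraries, replicate 6 at the bottom and replicate 8 at the top.

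mmu-miR-500-3p, its near-copy, lay at 0.636, 1.77 and 3.09 CPM (lowest, median and highest) in transgenic Vorinostat libraries, at 1.67, 2.88 and 3.96 CPM in transgenic vehicle libraries, and at 0, 1.86 and 2.67 CPM in wild type vehicle libraries. Of the 10 transgenic Vorinostat libraries 9 were below the transgenic vehicle mean, and 6 of the 7 transgenic vehicle libraries were above the wild type vehicle mean, but the groups overlapped. These levels rest on 2 to 32 reads per transgenic Vorinostat library, 17 to 92 per transgenic vehicle library and 0 to 51 per wild type vehicle library.

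mmu-miR-188-5p, the strand described in plasticity, lay at 0, 0.662 and 1.24 CPM in transgenic Vorinostat libraries, at 0.303, 0.709 and 1.32 CPM in transgenic vehicle libraries, and at 0, 1.31 and 1.53 CPM in wild type vehicle libraries (lowest, median and highest). All 10 transgenic Vorinostat libraries and 6 of 7 transgenic vehicle libraries were below the wild type vehicle median. The count behind a value was never above 25 reads, so counting error alone is large, and the wild type value of 0 is that of the shallow replicate 1.

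mmu-miR-532-3p, the partner strand of miR-532-5p, averaged 3.99 ± 2.27 CPM in transgenic Vorinostat libraries, 5.84 ± 1.65 CPM in transgenic vehicle libraries and 3.41 ± 1.78 CPM in wild type vehicle libraries (SD, n = 10, 7 and 9). All 7 transgenic vehicle libraries were above the wild type vehicle mean and 9 of 10 transgenic Vorinostat libraries were below the transgenic vehicle mean, but the groups overlapped. Its ranges were 0 to 7.41 CPM in transgenic Vorinostat, 4.37 to 8.70 CPM in transgenic vehicle and 0 to 5.23 CPM in wild type vehicle libraries.

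mmu-miR-362-5p averaged 6.09 ± 3.46 CPM in transgenic Vorinostat, 7.68 ± 2.77 CPM in transgenic vehicle and 5.48 ± 3.09 CPM in wild type vehicle libraries. mmu-miR-362-3p, which has the seed of miR-329-3p, averaged 1.96 ± 1.46 CPM in transgenic Vorinostat, 3.10 ± 1.58 CPM in transgenic vehicle and 1.99 ± 1.41 CPM in wild type vehicle libraries. mmu-miR-501-5p averaged 0.535 ± 0.645 CPM in transgenic Vorinostat, 0.739 ± 0.676 CPM in transgenic vehicle and 0.627 ± 0.511 CPM in wild type vehicle libraries, an SD about as large as the mean in each group. The mean of each of these 3 was highest in transgenic vehicle libraries, by less than the SD between libraries. Their wild type means, like that of miR-532-3p, include a value of 0 from the shallow replicate 1.

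**Figure D2:**
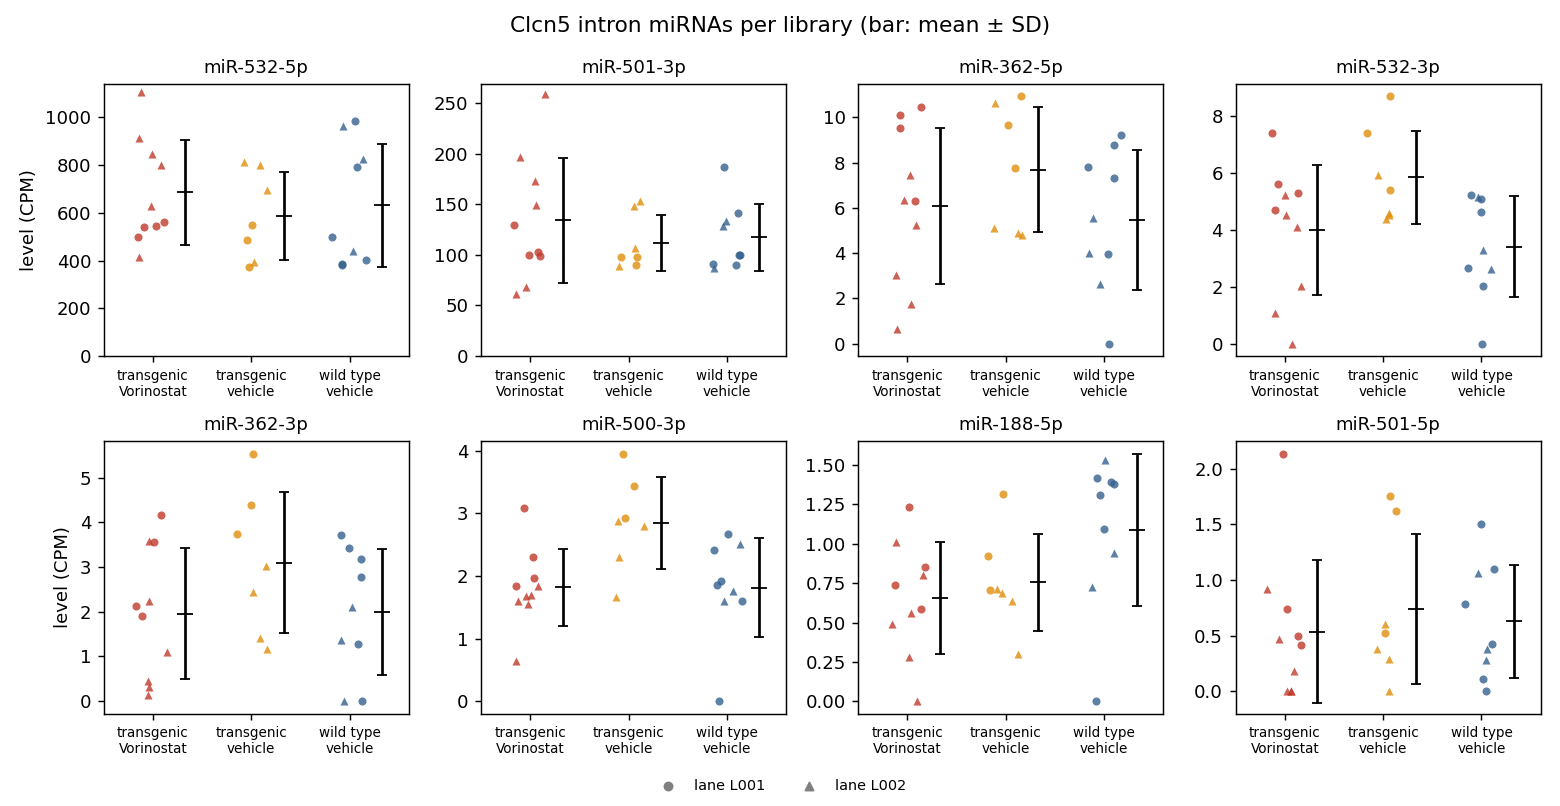
Level of each cluster miRNA (y axis, CPM) in each library of the 3 groups (x axis), 1 point a library, with circles for lane L001 and triangles for lane L002; the bar is the mean ± SD over 10 transgenic Vorinostat, 7 transgenic vehicle and 9 wild type vehicle libraries. In every panel the 3 groups overlap, and miR-500-3p is highest on average in transgenic vehicle libraries, at 2.85 ± 0.740 CPM, against 1.82 ± 0.789 CPM in wild type vehicle libraries.

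For transgenic vehicle against wild type vehicle, the effect of the transgene, none of the 8 miRNAs passed, and neither did any of the 605 tested, a share of 0% (edgeR's quasi-likelihood test with Benjamini-Hochberg adjustment at 0.05, two-sided). At an unadjusted p under 0.05 there were 13 of the 605, of which miR-500-3p was 1, and DESeq2 also called none. The log2 difference of miR-500-3p was 0.51 ± 0.24 (SE), with a 95% interval from 0.01 to 1.01 and an adjusted p of 0.98 by edgeR, ranked 11 of 605 by its p. Within lanes it was 0.72 in L001 and 0.28 in L002, and it was 0.45 without wild type vehicle replicate 1 and transgenic Vorinostat replicate 8. The difference of miR-188-5p was -0.64 ± 0.33 (SE), with an interval from -1.32 to 0.04, at -0.45 in L001 and -0.83 in L002. That of miR-532-3p was 0.66 ± 0.39 (SE), with an interval from -0.15 to 1.46, at 0.92 in L001 and 0.37 in L002.
The abundant strands differed by -0.10 ± 0.25 (miR-532-5p, interval from -0.62 to 0.41) and -0.07 ± 0.25 (miR-501-3p, interval from -0.59 to 0.45). Over the 8 miRNAs 5 differences were above 0 and 3 below, with a median of 0.28, beside a median of 0.03 over all 605, of which 54.4% were above 0.

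For transgenic Vorinostat against transgenic vehicle, the effect of the drug in the transgenic mice, again none of the 8 and none of the 605 passed, a share of 0% (edgeR's quasi-likelihood test with Benjamini-Hochberg adjustment). At an unadjusted p under 0.05 there were 21, including miR-500-3p, and DESeq2 called none. The log2 difference of miR-500-3p was -0.62 ± 0.23 (SE), with a 95% interval from -1.10 to -0.13 and an adjusted p of 0.836 by edgeR, ranked 4 of 605, and it was -0.61 in L001, -0.65 in L002 and -0.56 without both shallow libraries. The difference of miR-362-3p was -0.61 ± 0.52 (SE), with an interval from -1.67 to 0.46, and that of miR-532-3p was -0.52 ± 0.37 (SE), with an interval from -1.30 to 0.25. The abundant strands lay on the other side of 0, at 0.22 ± 0.24 for miR-532-5p (interval from -0.28 to 0.73) and 0.26 ± 0.25 for miR-501-3p (interval from -0.25 to 0.77). These were 0.10 and 0.09 without both shallow libraries and 0.07 and 0.09 with library totals in place of TMM factors. Leaving out 1 library at a time, the difference of miR-532-5p ran from 0.08 (without transgenic vehicle replicate 6) to 0.32, and that of miR-501-3p from 0.10 (without transgenic Vorinostat replicate 8) to 0.34. Of the 8 differences 6 were below 0, with a median of -0.41, beside -0.01 over all 605, of which 49.3% were above 0. This comparison and that of genotype share the 7 transgenic vehicle libraries, which enter them with opposite signs, so opposite differences of a miRNA in both are not separate observations.

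For transgenic Vorinostat against wild type vehicle, none of the 8 and none of the 605 passed, a share of 0% by the same edgeR test. At an unadjusted p under 0.05 there were 19, including miR-188-5p, and DESeq2 called none. miR-188-5p differed by -0.78 ± 0.30 (SE), with a 95% interval from -1.40 to -0.15 and an adjusted p of 0.9997 by edgeR, ranked 2 of 605 by its p. Within lanes it was -0.64 in L001 and -0.92 in L002, and it was -0.76 without both shallow libraries. The other 7 differed by -0.32 to 0.19. The median over the 8 was -0.01, beside 0.01 over all 605.

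The replicate numbers of the transgenic groups were taken to pair the libraries by the check described with the processing, and 6 of the 7 pairs also lie within 1 lane. The check was not run on libraries of unlike number, so it does not show that the numbers mark pairs. Results over pairs hold only if they do. With replicate number as a block in both transgenic groups alone, 5 of 579 miRNAs passed, none of them in the cluster. They were miR-129-5p, miR-379-5p and miR-182-5p, higher with Vorinostat, and miR-29c-3p and miR-339-5p, lower. In that fit miR-362-3p differed by -1.01 ± 0.32 (SE, adjusted p = 0.0754 by edgeR) and miR-500-3p by -0.77 ± 0.27 (SE, adjusted p = 0.107), and miR-188-5p and miR-501-5p were below its filter. miR-362-3p was lower with Vorinostat in all 7 pairs, with a mean difference of -0.89 ± 0.57 on the log2(CPM + 0.5) scale (SD over pairs). miR-532-5p was higher in all 7 pairs with TMM factors, with a mean difference of 0.27 ± 0.22 on that scale, and in 5 of 7 with library totals, with a mean of 0.09 ± 0.14. Its difference in the fit with the block was 0.26 ± 0.11 (SE, adjusted p = 0.154 by edgeR). With library totals miR-362-3p was again lower in all 7 pairs, as were miR-500-3p and miR-532-3p. With TMM factors miR-500-3p was lower in 6 of 7 pairs and miR-532-3p in 5 of 7. How many of all miRNAs went the same way in all 7 pairs was not counted. In the fit with the block 146 of the 579 had an unadjusted p under 0.05 by edgeR, including miR-362-3p, miR-500-3p and miR-532-5p. miR-182-5p belongs to a list of 3 miRNAs of thalamic or sensory neurons, whose summed level was 96.4 to 511 CPM in transgenic Vorinostat, 60.0 to 140 CPM in transgenic vehicle and 50.8 to 1330 CPM in wild type vehicle libraries, and the part of such cells in the levels of the cluster was not tested.

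The authors' deposited table of log2 values, for which the sources used here do not say how they were made, gave many more calls than the counts. By limma on these values, an alternative added after seeing the data, 366 of 674 miRNAs passed for transgenic vehicle against wild type vehicle, which is 54.3%, and 360, which is 53.4%, for transgenic Vorinostat against transgenic vehicle. For transgenic Vorinostat against wild type vehicle 6 passed, which is 0.89%, none of them in the cluster. In each of the first comparisons 5 of the 8 cluster miRNAs passed, a share near that of all miRNAs in this table.
In transgenic vehicle against wild type vehicle, miR-362-5p differed by 1.20, miR-532-3p by 0.96, miR-362-3p by 0.93 and miR-500-3p by 0.67 on the authors' log2 scale, and miR-532-5p by -0.53 (limma, adjusted p from 0.00525 to 0.0139). In transgenic Vorinostat against transgenic vehicle, the same 5 passed with the other sign, miR-362-5p at -1.22, miR-532-3p at -1.21, miR-362-3p at -0.96, miR-500-3p at -0.79 and miR-532-5p at 0.51 (limma, adjusted p from 0.00257 to 0.0102), again with the shared transgenic vehicle libraries. miR-188-5p did not pass and was closer to 0 than on counts in the comparisons with wild type vehicle, at -0.12 for transgenic vehicle and -0.35 for transgenic Vorinostat on the authors' log2 scale (limma), against -0.64 and -0.78 by edgeR. miR-501-3p and miR-501-5p did not pass either, and miR-501-5p was at -0.42 on the authors' scale and -0.51 on counts in transgenic Vorinostat against transgenic vehicle.

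The authors' values of miR-532-5p ran from 8.92 to 9.21 in transgenic Vorinostat libraries and from 8.28 to 8.84 in transgenic vehicle libraries, without overlap. Those of miR-532-3p ran from 0.43 to 2.79 in transgenic Vorinostat libraries and from 2.90 to 4.25 in transgenic vehicle libraries, also without overlap. The log2 CPM of the same libraries overlapped for both strands. How many of the 674 miRNAs lacked overlap on the authors' scale was not counted. By limma 53.4% of them passed in this comparison, so the separation is not shown to be particular to Mir532. Across the 26 libraries, the authors' value and log2(CPM + 0.5) had a Pearson r of 0.589 for miR-532-5p and of 0.723 to 0.888 for the other 7, and the mean gap between both scales ran from -0.31 for miR-532-5p to 4.20 for miR-362-5p. On the authors' scale miR-501-3p lay above miR-532-5p, with group means from 9.45 to 9.82 against 8.55 to 9.08. The order of the scarce strands there also differed from that by CPM.

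**Figure D3:**
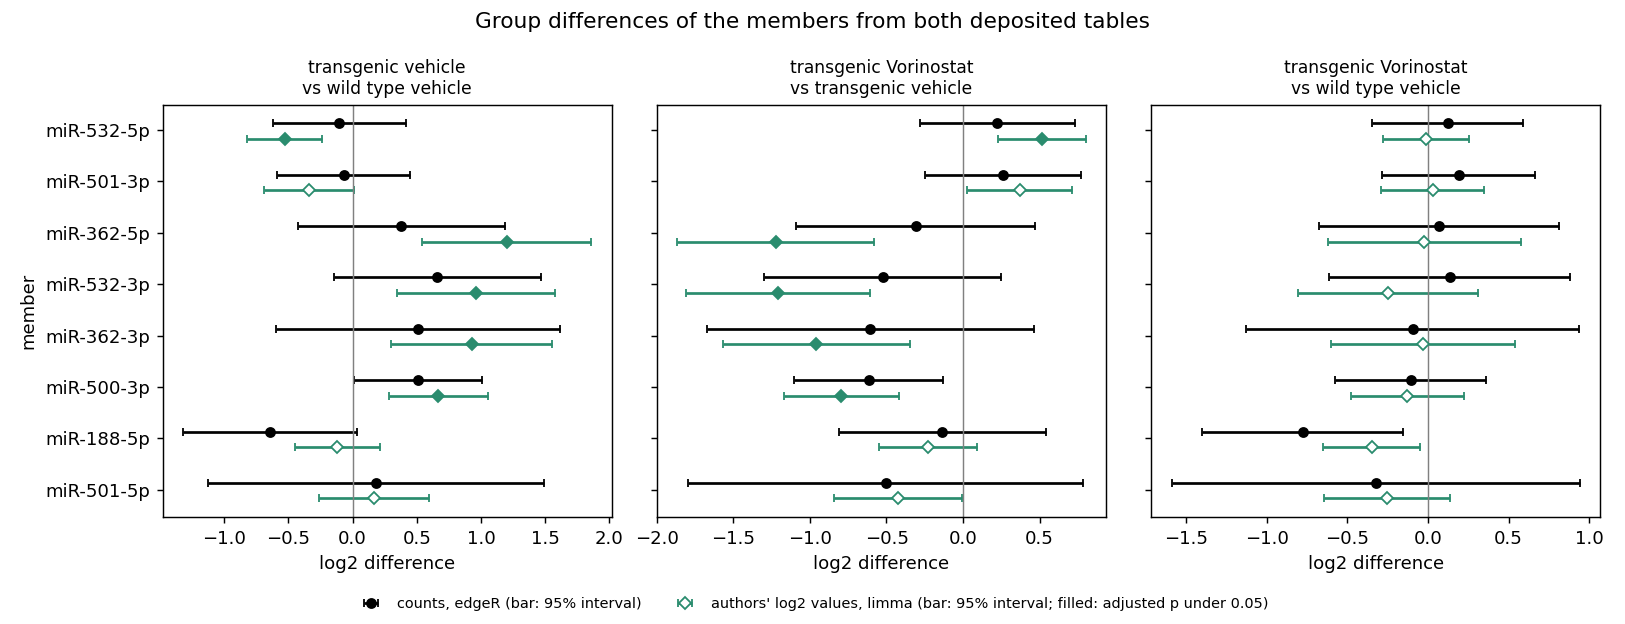
Log2 difference (x axis) of each cluster miRNA (y axis) in the 3 comparisons, from the counts by edgeR (black circles) and from the authors' log2 values by limma (green diamonds, filled where the adjusted p was under 0.05); bars are 95% intervals. miR-362-5p is at 0.38 on counts and at 1.20 on the authors' values in transgenic vehicle against wild type vehicle, and the third panel holds no filled symbol.

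Over the libraries, the abundant and the scarce strands of the cluster varied in opposite directions. The 2 abundant strands went together, with a Spearman rho of 0.776 and a Pearson r of 0.770 between miR-532-5p and miR-501-3p on log2(CPM + 0.5) over 26 libraries (permutation test, adjusted p = 9.3e-05 for rho and 4.7e-05 for r, over 28 pairs). All values of a library share its total and TMM factor. The permutations ran over all 26 libraries, across groups, lanes and pairs, and no p-value was computed within lanes. Where libraries of a lane or pair are alike, these p-values can be too small. Without the 2 libraries farthest from the median of miR-501-3p, r was 0.725, and rho was 0.786 among the 13 libraries of L001 and 0.665 among the 13 of L002. The 6 scarce strands went together as well. All 15 rho values between them were above 0, with a median of 0.655, and 10 passed (permutation test adjusted over the 28 pairs). The highest, 0.895 between miR-362-5p and miR-532-3p, joins strands of different hairpins, and miR-362-5p with its own partner miR-362-3p had 0.823. miR-188-5p was the exception, since none of its pairs passed by rho. How many pairs of other tested miRNAs would pass was not counted. Neither the split into abundant and scarce strands nor the counts of pairs that passed are therefore shown to be particular to the cluster.

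Between the abundant and the scarce strands all 12 rho values were below 0, with a median of -0.655, and 9 passed. The lowest was -0.825 for miR-362-3p with miR-532-5p (r = -0.851, adjusted p = 9.3e-05 for rho and 4.7e-05 for r, permutation test), and r was -0.834 without the 2 libraries farthest from the median of miR-362-3p. Strands of the same hairpin are among these pairs. miR-532-5p and miR-532-3p had a rho of -0.670 and an r of -0.637 (permutation test, adjusted p = 0.00056 and 0.00011), with r at -0.511 without the 2 libraries farthest from the median of miR-532-5p. miR-501-5p and miR-501-3p had a rho of -0.649 and an r of -0.580 (permutation test, adjusted p = 0.00084 and 0.0025).

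Within lanes the medians of the 12 negative pairs were -0.346 in L001, with none above 0, and -0.654 in L002, with 1 above 0. For miR-532-5p with miR-532-3p, rho was -0.093 in L001 and -0.714 in L002, whereas r was -0.672 in L001 and -0.609 in L002. The medians of the 15 positive pairs were 0.374 in L001 and 0.456 in L002, with 12 above 0 in each. Without wild type vehicle replicate 1 and transgenic Vorinostat replicate 8, the medians over both lanes were -0.584 and 0.576. With library totals in place of the TMM factors, rho was -0.534 for miR-532-5p with miR-532-3p and 0.822 for miR-532-5p with miR-501-3p.

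**Figure D4:**
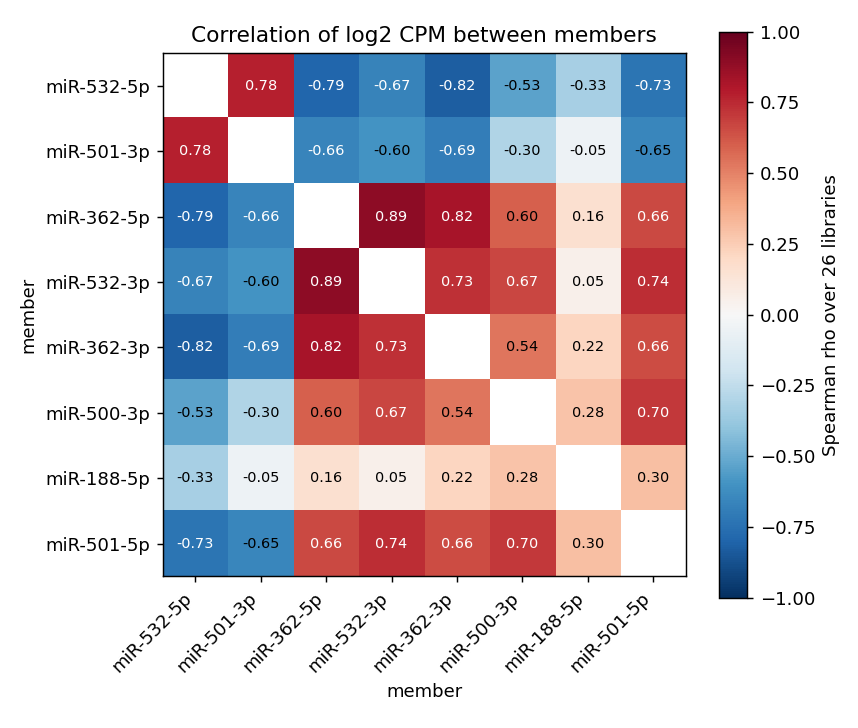
Spearman rho over 26 libraries between each pair of cluster miRNAs on log2(CPM + 0.5), from blue at -1 to red at 1, with the value written in each field. miR-532-5p and miR-501-3p, at 0.78, form a red block apart from the red block of the 6 scarce strands, and every field between both blocks is below 0.

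Of the scarce strands, miR-362-5p and miR-532-3p were set against depth, and their relation to it rested on the shallowest libraries. On log2(CPM + 0.5) against log10 of the library total, miR-362-5p had a Pearson r of 0.724 (permutation test, adjusted p = 0.0022) and a rho of 0.261 (adjusted p = 0.29), and r was 0.0751 without wild type vehicle replicate 1 and transgenic Vorinostat replicate 8. miR-532-3p had an r of 0.727 (adjusted p = 0.0022) and a rho of 0.352 (adjusted p = 0.29), and r was 0.212 without them. The same r was -0.358 for miR-532-5p and -0.311 for miR-501-3p, neither of which passed, in a family of 4 relations added after seeing the data.

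The lanes differed in opposite directions for the abundant and the scarce strands, but no difference between lanes passed for any of the 8. In the fit with group and lane, whose lane term was taken up as a result after seeing the data, L002 minus L001 was 0.49 ± 0.18 (SE) for miR-532-5p and 0.30 ± 0.20 for miR-501-3p. It was -1.29 ± 0.48 for miR-501-5p, -1.13 ± 0.38 for miR-362-3p, -0.85 ± 0.27 for miR-362-5p, -0.55 ± 0.29 for miR-532-3p, -0.47 ± 0.25 for miR-188-5p and -0.37 ± 0.18 for miR-500-3p. By edgeR's adjusted p none of the 8 passed and 1 of the 605 did, which is 0.165%, whereas 5 of the 8 and 19.8% of all 605 had an unadjusted p under 0.05. Whether the lane label also marks another step of the work is not stated, and its part in the correlations was not tested beyond the values within lanes.

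Shares of the arms do not depend on the scaling of libraries. Of the reads of Mir532, 99.3 ± 0.465% were 5p in transgenic Vorinostat, 98.9 ± 0.508% in transgenic vehicle and 99.3 ± 0.489% in wild type vehicle libraries (SD, n = 10, 7 and 9). Of the reads of Mir362, 75.7 ± 10.9% were 5p in transgenic Vorinostat, 72.2 ± 6.69% in transgenic vehicle and 76.0 ± 10.2% in wild type vehicle libraries (n = 10, 7 and 8, as wild type vehicle replicate 1 had no read of either strand). Of the reads of Mir501, 0.577 ± 0.679% were 5p in transgenic Vorinostat, 0.729 ± 0.702% in transgenic vehicle and 0.619 ± 0.581% in wild type vehicle libraries. With libraries taken as unpaired, no share passed in any of the 3 comparisons (9 exact permutation tests, two-sided, adjusted p from 0.548 to 0.995). The nearest to the threshold was Mir532 in transgenic Vorinostat against transgenic vehicle, at a difference of 0.411 percentage points (exact permutation test, p = 0.105). Over the 7 pairs of these groups, a comparison added after seeing the data, the 5p share of Mir532 was higher with Vorinostat in all 7, by 0.031 to 0.831 points with a mean of 0.425 ± 0.333 (SD). The exact sign-flip permutation test gave p = 0.0156, the smallest that 7 pairs allow, with an adjusted p of 0.0469 over the 3 paired tests and of 0.188 over all 12 tests of shares. The paired difference was 6.34 ± 7.49 points for Mir362 (exact permutation test, p = 0.0938) and -0.279 ± 0.688 points for Mir501 (p = 0.312). The pairs include the shallow transgenic Vorinostat replicate 8, with 3475 reads of miR-532-5p and 0 of miR-532-3p. Over all libraries the 5p share of Mir532 was 99.0% in L001 and 99.4% in L002. Hairpins outside the cluster were not compared in this way.

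**Figure D5:**
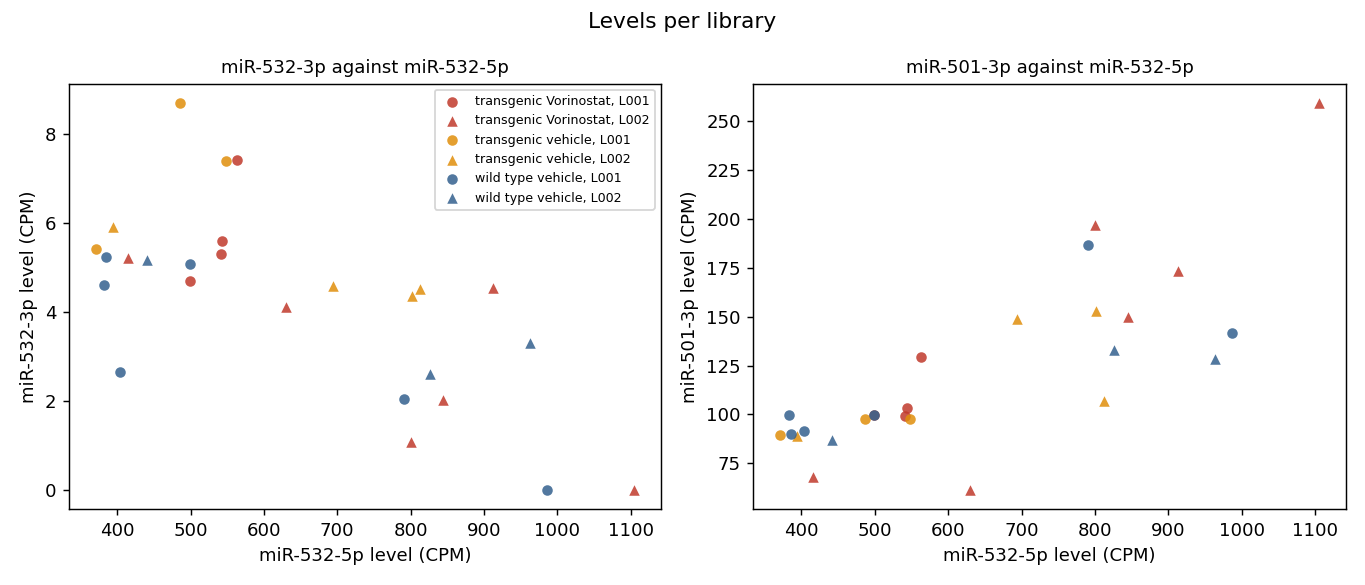
Left, level of miR-532-3p (y axis, CPM) against its partner miR-532-5p (x axis, CPM); right, level of miR-501-3p (y axis, CPM) against miR-532-5p; 1 point a library, coloured by group, with circles for lane L001 and triangles for L002. The left panel slopes down (rho of -0.670 over 26 libraries) and the right panel slopes up (rho of 0.776), and libraries of all 3 groups lie along both.

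The authors deposited a table of co-expression modules, which they built on these libraries and which is therefore not independent of them. In it the abundant strands again lay apart from the scarce ones, but the scarce ones were not all in the same module. miR-362-5p, miR-362-3p, miR-500-3p, miR-501-5p and miR-532-3p were in the turquoise module of 404 miRNAs, miR-501-3p and miR-532-5p in the blue module of 197, and miR-188-5p in the brown module of 34. The modules were made from 674 miRNAs in all. Most of these lay in the turquoise or the blue module, so the split is not shown to be particular to the cluster. miR-532-5p had a membership score of 0.927 in the blue and -0.791 in the turquoise module of the authors' deposited table, on a scale from -1 to 1.

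The miRNAs most like the summed cluster (CPM of the 8 added up, Spearman rho over 26 libraries, 597 compared) were miR-673-3p at 0.985, miR-541-5p at 0.968, miR-129-5p at 0.967, miR-378c at 0.966 and miR-379-5p at 0.960. Since miR-532-5p and miR-501-3p make up nearly all of the sum, this likeness is to the abundant strands. The sum averaged 835 ± 269 CPM in transgenic Vorinostat, 720 ± 200 CPM in transgenic vehicle and 763 ± 276 CPM in wild type vehicle libraries (SD, n = 10, 7 and 9).

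Added up as 1 feature, miR-500-3p and miR-501-3p differed by 0.24 ± 0.24 (SE) on the log2 scale in transgenic Vorinostat against transgenic vehicle, by -0.05 ± 0.25 in transgenic vehicle against wild type vehicle and by 0.19 ± 0.22 in transgenic Vorinostat against wild type vehicle (edgeR). The sum lay close to miR-501-3p, which had most of the reads. Of 44 other miRNAs with hairpins on chromosome X none passed by edgeR in any comparison, with median log2 differences of 0.04 in transgenic vehicle against wild type vehicle, -0.05 in transgenic Vorinostat against transgenic vehicle and -0.04 in transgenic Vorinostat against wild type vehicle. Of 16 miRNAs known from hippocampal plasticity none passed either, with medians of 0.14 in transgenic vehicle against wild type vehicle, -0.06 in transgenic Vorinostat against transgenic vehicle and 0.03 in transgenic Vorinostat against wild type vehicle.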

How the data were processed

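CA1 was dissected under a microscope, and per the labels' protocols the TruSeq Small RNA kit and single reads of 50 bases were used. FastQC 0.11.5 and mm10 are named in the submitters' processing notes. The sources used here name no aligner, miRNA reference or counting rule. Per the file headers and values, the authors deposited counts of reads for each mature miRNA, a table of normalized values on a log2 scale and a table with a membership score of each miRNA in their modules; the p-values deposited beside the scores were not used. The cluster's members and the lists were chosen with earlier results of these data known.

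Counts were tested with edgeR 4.0.16 in R 4.3.3 (quasi-likelihood, TMM, filterByExpr with min.count of 10 and min.total.count of 15), with all 26 libraries in 1 model of 3 groups, two-sided. The authors' log2 values were tested with limma 3.58.1. DESeq2 1.42.0 was an alternative. The fit was tested on simulated data. Arm shares were compared with exact permutation tests, and over pairs by flipping the signs of the differences. Correlations used 100000 permutations and log2(CPM + 0.5). Limits at a count of 0 cover counting error only.

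Named miRNAs were the listed members, other strands of their hairpins and the 5 tested miRNAs most like the summed cluster by rho. The 5 miRNAs called with the block were named after their values were seen. Replicate numbers of the labels were taken to pair transgenic Vorinostat with transgenic vehicle libraries, since the correlation of deviations from the group means was over 0.1 in all 7 pairs (from 0.257 to 0.674). It was over 0.1 in 4 of 6 pairs of transgenic vehicle with wild type vehicle and in 6 of 9 of transgenic Vorinostat with wild type vehicle, where the numbers were not taken as pairs. The highest values there were 0.553 and 0.657. Libraries of unlike number were not compared.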

Additional observations from a re-analysis of the deposited data

Results flagged for a closer look

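Of 36 sets of values, each a miRNA level or a 5p share in 1 group, 3 held a library with a wide gap to the next, where chance gives about 1 in 20. miR-501-5p in transgenic Vorinostat replicate 1 was at 2.13 CPM, against 0.914 CPM in the next library of that group. miR-500-3p in wild type vehicle replicate 1, the shallowest library, was at 0 CPM, against 1.59 CPM in the next, but a count of 0 allows up to 6.24 CPM there, above the 2.67 CPM of the highest library of the group, so this value is not shown to lie apart. The 5p share of Mir362 in wild type vehicle replicate 7 was 100%, as no read of miR-362-3p was counted there beside 28 of miR-362-5p (95% Wilson interval from 87.9 to 100%), against 76.0% in the next library.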

How the results depend on the processing

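With RLE, upper quartile or no scaling factors, other filters, DESeq2, limma voom, lanes as a term or alone, the replicate block over all libraries, and without any single library, 0 miRNAs passed in each comparison. The replicate block in both transgenic groups alone raised the count to 5 for transgenic Vorinostat against transgenic vehicle, and limma on the authors' log2 values raised the counts to 366 for transgenic vehicle against wild type vehicle, 360 for transgenic Vorinostat against transgenic vehicle and 6 for transgenic Vorinostat against wild type vehicle; the cause was not tested. Over the pairs of the transgenic groups, the difference in the 5p share of Mir532 was 0.425 percentage points, now past an unadjusted 0.05. With a mean of at least 10 CPM, 6 scarce strands were not tested, and miR-501-5p was below the filter in L002 alone. Of 959 values of a member's difference, 38 turned round.

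In transgenic Vorinostat against wild type vehicle, the log2 difference of miR-362-5p turned to -0.010 with library totals only, -0.040 with voom, -0.0068 with the replicate block and -0.021 on the authors' values. That of miR-362-3p turned to 0.089 with voom, 0.17 with lane as a term, 0.032 in L001 and 0.21 in L002. miR-532-3p turned to -0.084 with voom, -0.0086 with the replicate block, -0.36 in L002 and -0.25 on the authors' values. miR-532-5p turned to -0.021 with lane as a term, -0.087 in L001 and -0.013 on the authors' values. In L001, miR-500-3p turned to 0.12, miR-501-5p to 0.18 and miR-501-3p to -0.15. In transgenic vehicle against wild type vehicle, miR-501-5p turned to -0.12 with voom and miR-501-3p to 0.095 in L002.

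Leaving out 1 library at a time moved 7 differences across 0. In transgenic Vorinostat against wild type vehicle, miR-362-5p ran from -0.088 to 0.19, miR-532-3p from -0.0035 to 0.26 and miR-362-3p from -0.32 to 0.048. In transgenic vehicle against wild type vehicle, miR-501-5p ran from -0.20 to 0.40, miR-501-3p from -0.13 to 0.045 and miR-532-5p from -0.20 to 0.058. In transgenic Vorinostat against transgenic vehicle, miR-188-5p ran from -0.29 to 0.017.

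The 5p shares, in percentage points, turned as follows. In transgenic Vorinostat against wild type vehicle, Mir362 turned to 0.641 without both shallow libraries, to 3.39 in L001 and to 0.050 as a log2 ratio of arms, and ran from -2.77 to 3.06 without 1 library. Mir532 turned to 0.0080 without both, to 0.146 in L002 and to 0.31 as a log2 ratio, and ran from -0.0819 to 0.0854. Mir501 turned to 0.247 in L001 and ran from -0.210 to 0.0864. In transgenic vehicle against wild type vehicle, Mir501 turned to -0.290 in L002 and to -0.28 as a log2 ratio, and ran from -0.0630 to 0.238. In transgenic Vorinostat against transgenic vehicle, Mir362 turned to -0.145 and Mir501 to 0.0878 in L002, and Mir501 ran from -0.320 to 0.0212.

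Of 140 correlations under other settings 32 moved, mainly within lanes. Depth limits the scarce strands most, since their levels rest on few reads.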
